A study of Mus musculus with 10 samples.

Results

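Integrins are receptors made of 1 α and 1 β subunit that bind cells to other cells and to the extracellular matrix. The β2 subunit (*Itgb2*, CD18) pairs with αL (*Itgal*, LFA-1), αM (*Itgam*, CD11b) or αX (*Itgax*, CD11c) on leukocytes, and these receptors bind intercellular adhesion molecules and complement fragments, among others. The α4 subunit (*Itga4*) pairs with β1 (*Itgb1*) or β7 (*Itgb7*) and takes part in the entry of leukocytes into tissues such as the inflamed central nervous system, while α5 (*Itga5*) with β1 and αv (*Itgav*) with β5 (*Itgb5*) bind fibronectin and vitronectin. These 10 genes were chosen by name from the 55487 genes of the count table. All 10 passed a filter on low values, which left 13740 genes and asked for more than 1 CPM (counts scaled to the library size) in at least 3 libraries.

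The libraries came from the spinal cords of 5 male C57BL/6 mice, 8 to 12 weeks old per the study's methods. The mice carried a reporter allele with a yellow fluorescent protein (YFP). They were taken at the peak of experimental autoimmune encephalomyelitis (EAE), a model of multiple sclerosis, here induced with a myelin peptide in complete Freund's adjuvant and pertussis toxin. Viable CD45+CX3CR1+ cells without Ly6G and CD3 were sorted from each animal into 200000 YFP+ and 100000 YFP- cells. Each of the 5 YFP+ libraries thus has a YFP- partner from the same mouse. The gate used none of the 10 integrins and did not separate monocyte-derived cells from macrophages that reside in the tissue. No healthy animals were part of this comparison.

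Total counts per library were 28870482 to 33826355 for YFP+ and 28212174 to 35455643 for 4 of the YFP- libraries. The YFP- library of animal m234 was shallow, with 8396863 counts, so that 1 CPM stood for 8.50 counts there and for at least 28.0 counts in the others. Below, mean levels in CPM are given ± SD over 5 libraries a group, YFP+ first, and fold changes are YFP+ over YFP- with their standard error (SE). *Ptprc* (CD45; 623 ± 37.5 and 728 ± 70.3 CPM) and *Cx3cr1* (140 ± 67.0 and 282 ± 176 CPM), whose proteins were gated for, were found in all libraries. They did not pass the test (edgeR FDR = 0.069 and 0.153) but did with the animal as a block (edgeR FDR = 0.00192 and 9.24e-05), *Ptprc* also in DESeq2 (FDR = 0.0225), with library totals (FDR = 0.0334) and without YFP+ m234 (FDR = 0.0445) or YFP- m236 (FDR = 0.038). *Cd3e* and *Ly6g*, whose proteins were gated out, had at most 7 and 4 counts in any library.

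YFP+ and YFP- cells expressed the same 10 integrin subunits, and the differences between them were small. *Itgam* was higher and *Itgal* was lower in YFP+ cells, and the other 8 subunits did not pass the test. This was edgeR's quasi-likelihood test at a false discovery rate (FDR) below 0.05, which did not use the pairing by animal. A fit that uses the pairing is given below and also called *Itgb1*, *Itgb2*, *Itgb7*, *Itgax* and *Itga5*. In the test without the pairing 1 of 10 members was higher, against 6.82% of all tested genes (937 of 13740), and 1 of 10 was lower, against 6.15% (845 of 13740). Both counts are near the background and are no result about the family. None of the 10 passed an absolute log2 fold change of 1 as well, as 199 genes or 1.45% of all did, the largest among the members being 0.41. Within animals, *Itgam*, *Itgb1* and *Itgb7* were higher in YFP+ cells in 5 of 5 mice (20.01% of all genes were), and *Itgax*, *Itgal* and *Itga5* were lower in 5 of 5 (21.01% of all genes were). As these are bulk samples, fewer cells with a subunit and less of its RNA per cell cannot be told apart.

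A fit with the animal as a block compares the cells of each mouse with each other. It called 4 members higher (*Itgam*, *Itgb1*, *Itgb2* and *Itgb7*) and 3 lower (*Itgax*, *Itgal* and *Itga5*). The same block raised the share of all tested genes to 16.79% higher (2307) and 18.33% lower (2519). With library totals in place of TMM library sizes, the balance of calls over all genes moved to 701 higher and 1282 lower, and *Itgam* was no longer called.

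**Figure D1:**
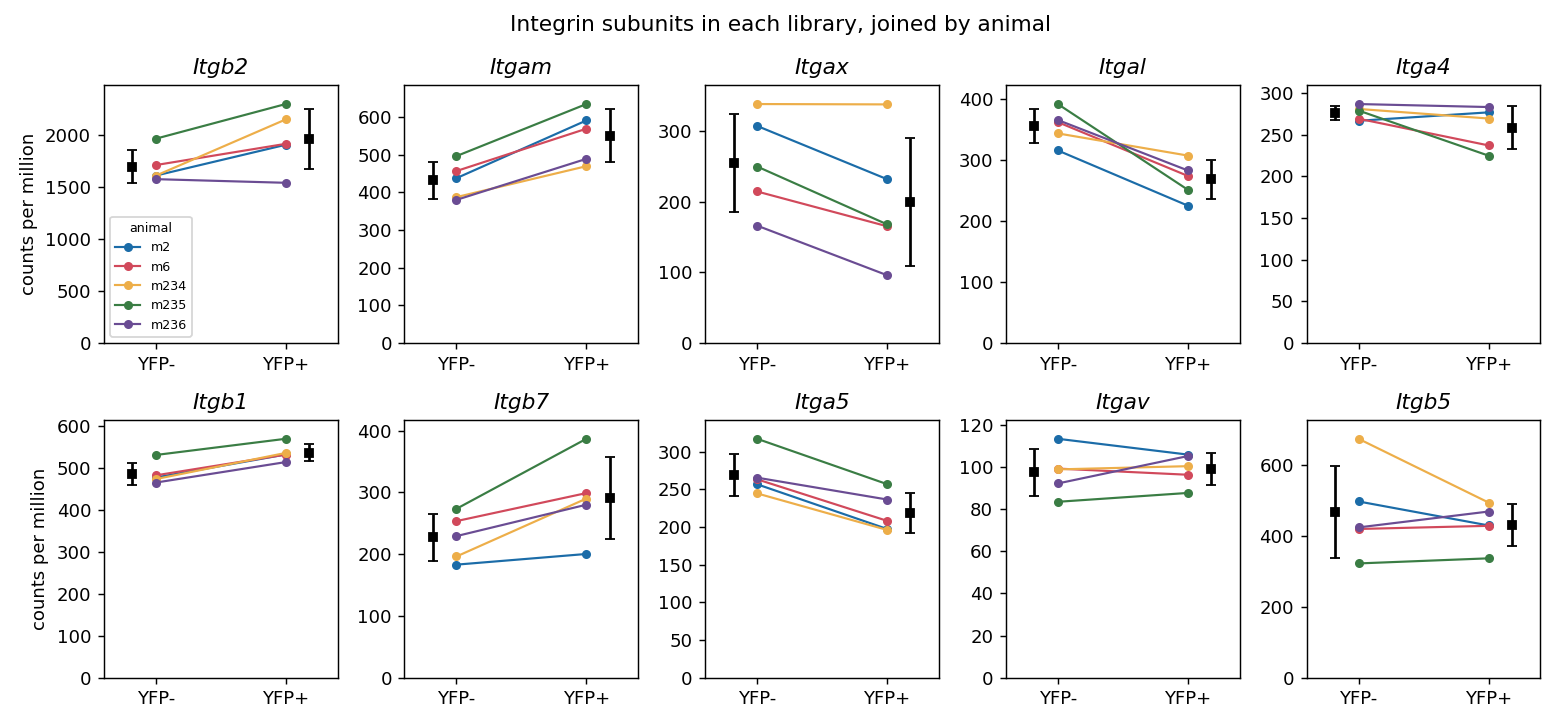
Level of each of the 10 subunits in CPM (y axis, from 0) in the YFP− and YFP+ library of each animal (coloured points, joined by animal), with the mean and SD of each group as black squares and bars. *Itgam*, *Itgb1* and *Itgb7* slope up and *Itgax*, *Itgal* and *Itga5* slope down in 5 of 5 animals, the slope of *Itgax* in m234 being close to flat.

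*Itgb2* (ENSMUSG00000000290, chr10:77530252-77565708, plus strand; GRCm38 here and below) encodes the β subunit that the leukocyte integrins of the CD11 group share. In YFP+ cells it stood at 1902 CPM in m2, 1911 in m6, 2145 in m234, 2293 in m235 and 1537 in m236. Their YFP- partner libraries had 1606, 1707, 1605, 1960 and 1572 CPM. The groups overlapped, and 4 of 5 animals had more in YFP+ cells, m236 being the exception. *Itgb2* did not pass (log2 fold change 0.21 ± 0.11, SE, edgeR FDR = 0.197). With the animal as a block it was 0.20 ± 0.06 and passed (edgeR FDR = 0.0222), but not once both libraries of m2 (0.088), m6 (0.0606) or m235 (0.0672) were left out of that fit. Of its stretches of 50 bases 1.05% are shared with *Gm14699*.

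*Itgam* (ENSMUSG00000030786) encodes αM, the CD11b by which myeloid cells are commonly recognised. Its levels in YFP+ cells were 591 CPM in m2, 569 in m6, 470 in m234, 635 in m235 and 489 in m236. In YFP- cells the same animals had 438, 457, 388, 497 and 380 CPM. Each YFP+ library was above its own partner, by 0.28 to 0.43 on the log2 scale, although YFP+ m234 and m236 were below the highest YFP- library, that of m235. *Itgam* had a log2 fold change of 0.35 ± 0.10 (SE), a 1.28-fold higher level (edgeR FDR = 0.0385), and 0.35 ± 0.04 with the animal as a block (edgeR FDR = 8.38e-05).

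Without the block the *Itgam* call was close to the limit and needed most of the libraries, while the log2 fold change stayed between 0.29 and 0.41 with any library or animal left out. The call was lost in 7 of 10 fits that left out 1 library (edgeR FDR = 0.0228 to 0.0935 over the 10). These were YFP+ m2 (FDR = 0.0935), m6 (0.0836) and m235 (0.0759) and YFP- m2 (0.0717), m6 (0.0608), m234 (0.0681) and m236 (0.0817, all by edgeR). It was also lost without both libraries of m2 (edgeR FDR = 0.154), m6 (0.124) or m236 (0.0816) and with library totals (0.054). With the animal as a block the *Itgam* call held with both libraries of any 1 animal left out (edgeR FDR = 4.09e-06 to 0.00129).

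Part of the *Itgam* reads may be missing from its count. Of its exon bases (chr7:128062640-128118491, plus strand), 70.0% also belong to exons of *Gm49368*, a gene model on the same strand. In the Union mode that the study's methods name, a read that touches exons of both genes is given to neither. *Gm49368* had 8 to 27 counts per library, so the shared reads did not go to it. Whether they were left out or given to *Itgam* was not tested.

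*Itgal* (ENSMUSG00000030830) encodes αL, the α subunit of LFA-1, which binds intercellular adhesion molecules on endothelium and on other leukocytes. It was at 225 CPM in m2, 274 in m6, 308 in m234, 252 in m235 and 283 in m236 among YFP+ libraries. Among YFP- libraries it had 316, 363, 344, 392 and 366 CPM. The groups did not overlap, YFP+ m234 at 307.6 CPM being just below YFP- m2 at 316.0 CPM. *Itgal* was the only member whose groups were apart, while 5.20% of all tested genes (714) were apart in this direction and 6.15% (845) in the other. Its level in YFP+ cells was 0.753 times that in YFP- cells, with a log2 fold change of −0.41 ± 0.09 (SE, edgeR FDR = 0.0104). The call held with each library left out (edgeR FDR = 0.00728 to 0.0272) and in 4 of the 5 fits that left out 1 animal, the exception being m6 (edgeR FDR = 0.0618).

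*Itgax* (ENSMUSG00000030789) encodes αX, the CD11c by which dendritic cells and many activated macrophages are recognised. In YFP+ cells it was at 95.8 CPM in m236, 165 in m6, 168 in m235, 232 in m2 and 337 in m234. YFP- cells, in the same order of animals, had 166, 214, 249.5, 307 and 338 CPM. The animals thus kept their order from low to high in both populations, and the groups overlapped widely. *Itgax* did not pass (−0.35 ± 0.29, SE, edgeR FDR = 0.441). The value was −0.62 without YFP+ m234, −0.23 without YFP- m234 and −0.17 without YFP+ m236, and passed in none of these (edgeR FDR = 0.121 to 0.682). Within animals *Itgax* was lower in YFP+ cells in 5 of 5, with log2 differences from −0.79 in m236 to −0.0021 in m234, and the block gave −0.43 ± 0.09 (edgeR FDR = 0.00431). *Itgax* shares 8.02% of its stretches of 50 bases with *Itgad*, a further α partner of β2.

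Both αX and αM pair with β2, and the ratio of their transcripts within a library needs no library size. The log2 ratio of *Itgax* to *Itgam* counts averaged −1.58 ± 0.71 (SD, n = 5) over YFP+ and −0.80 ± 0.43 (SD, n = 5) over YFP- libraries. It was lower in the YFP+ library of 5 of 5 animals, and the groups overlapped. The difference of −0.78 did not pass the 2-sided exact permutation test (p = 0.0714, adjusted p = 0.143 over the 2 ratios tested, where 0.00794 is the smallest p of 252 splits). That test does not use the pairing. Within animals the ratio differed by −0.84 in m2, −0.69 in m6, −0.28 in m234, −0.93 in m235 and −1.16 in m236, a mean of −0.78 ± 0.33 (SD, n = 5). A 2-sided exact permutation test that flips the signs of these differences, added after the data were seen, gave p = 0.0625, the smallest that 5 animals allow, so that it could not pass. The YFP+ library of m234 had the highest ratio of its group, −0.48. Without it the difference was −1.055 (exact permutation p = 0.00794, unadjusted). Without both libraries of m234 it was −0.90 (exact permutation p = 0.0286, unadjusted and the smallest that 4 against 4 libraries can give). The other 13 leave-outs did not pass (exact permutation p = 0.0714 to 0.171), with the smallest difference, −0.59, without YFP+ m236.

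Most tested markers of conventional dendritic cells were also lower in YFP+ cells. Of 12 such genes 9 were tested, of which 7 were lower and none was higher (edgeR FDR below 0.05; none was higher at an unadjusted p below 0.05 or in limma-trend or DESeq2). Over all tested genes 6.15% were lower and 6.82% higher. The median log2 fold change of the 9 was −1.65, against −0.0022 over all tested genes. Summed over the list, the level was 26.5 CPM in m2, 18.3 in m6, 31.3 in m234, 16.8 in m235 and 14.7 in m236 for YFP+ and 52.4, 32.3, 66.6, 33.8 and 32.0 CPM for the YFP- partners. Animal m234 had the highest sum in both groups. *Clec9a*, the most abundant, did not pass (13.9 ± 5.68 and 11.8 ± 3.66 CPM, edgeR FDR = 0.547), *Flt3* stood at 0.289 ± 0.141 and 3.63 ± 1.47 CPM (edgeR FDR = 0.00024), and *Xcr1* and *Cd209a* had at most 11 and 5 counts in any library. Of the 7, the *Batf3* call was lost without YFP+ m2, m6, m235 or m236 or YFP- m2 (edgeR FDR = 0.0553 to 0.0742) or the pair of m2, m6 or m236 (up to 0.133), and the *Tlr11* call without YFP+ m2, m6, m235 or m236 (edgeR FDR = 0.07 to 0.0937), with no filter (0.0594) or without the pair of m235 or m236 (0.0739 and 0.0726). The part of such cells in the *Itgal* and *Itgax* values was not tested.

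*Itga4* (ENSMUSG00000027009, chr2:79255426-79333123, plus strand) encodes α4, which binds vascular cell adhesion molecule 1 and is the target of an antibody used in multiple sclerosis. Its levels in YFP+ cells were 277 CPM in m2, 237 in m6, 270 in m234, 225 in m235 and 283 in m236. Their partner libraries had 267, 269, 281, 279 and 287 CPM. The YFP- libraries lay close together, and 4 of 5 animals had less in YFP+ cells, m2 being the exception. The log2 fold change of −0.10 ± 0.07 (SE) passed neither without the block (edgeR FDR = 0.365) nor with it (edgeR FDR = 0.147). It was −0.05 without YFP+ m235 and −0.04 without both libraries of m235. *Itga4* shares 7.51% of its stretches of 50 bases with *Cerkl*, *Acbd5* and *Pikfyve*, and 1.30% of its exon bases lie opposite *Cerkl*.

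Both β partners of α4 were above their YFP- partner libraries in 5 of 5 animals. *Itgb1* (ENSMUSG00000025809, chr8:128685654-128733200, plus strand), which also pairs with many other α subunits, was at 531 CPM in m2, 531 in m6, 535 in m234, 569 in m235 and 513 in m236 among YFP+ libraries. YFP- cells of the same animals had 477, 482, 473, 530 and 465 CPM. The differences within animals were small and even, 0.10 to 0.18 on the log2 scale, and the groups overlapped through YFP- m235. The log2 fold change was 0.14 ± 0.06 (SE, edgeR FDR = 0.106), and it passed with the animal as a block (0.14 ± 0.03, edgeR FDR = 0.00854) and in DESeq2 (FDR = 0.0332).

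*Itgb7* (ENSMUSG00000001281, chr15:102215995-102231944, minus strand) directs lymphocytes to the gut as part of α4β7. It was at 200 CPM in m2, 299 in m6, 290 in m234, 387 in m235 and 280 in m236 among YFP+ libraries. The YFP- partners had 183, 254, 196, 273 and 229 CPM. Animal m2 was the lowest and m235 the highest in both populations, and the differences within animals were uneven, from 0.13 in m2 to 0.56 in m234. *Itgb7* had a log2 fold change of 0.36 ± 0.16 (SE, edgeR FDR = 0.147), or 0.34 ± 0.06 with the animal as a block (edgeR FDR = 0.0019). Without the block, the value ran from 0.23 without YFP+ m235 to 0.47 without YFP+ m2.

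The log2 ratio of *Itgb7* to *Itgb1* counts averaged −0.91 ± 0.31 (SD, n = 5) over YFP+ and −1.11 ± 0.20 (SD, n = 5) over YFP- libraries. It was higher in YFP+ cells in 4 of 5 animals, m2 being the exception, and the groups overlapped. The difference of 0.20 did not pass the 2-sided exact permutation test (p = 0.222, adjusted p = 0.222). Within animals the mean difference was 0.20 ± 0.19 (SD, n = 5), where the exact permutation test by sign flips gave p = 0.125. Without YFP+ m2, at −1.41 the lowest of its group, the difference was 0.32 (exact permutation p = 0.0238, unadjusted). Without both libraries of m2 it was 0.26 (exact permutation p = 0.0286, unadjusted and the smallest that 4 against 4 libraries can give). The other 13 leave-outs did not pass (exact permutation p = 0.183 to 0.484), among them YFP+ m235 with a difference of 0.11 and YFP- m2 with 0.13.

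**Figure D2:**
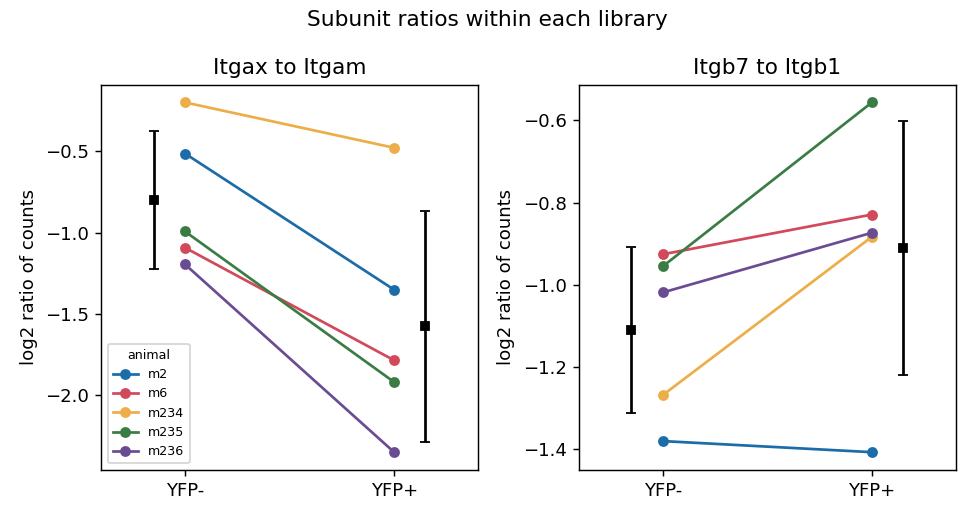
Log2 ratio of counts of *Itgax* to *Itgam* (left) and of *Itgb7* to *Itgb1* (right) in the YFP− and YFP+ library of each animal (coloured points, joined by animal), with the mean and SD of each group as black squares and bars. The left ratio is lower in YFP+ cells in 5 of 5 animals from different starting points, and the right one is higher in 4 of 5 animals, m2 being the exception.

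*Itga5* (ENSMUSG00000000555, chr15:103344286-103366763, minus strand) forms the classical fibronectin receptor with β1. It was at 197 CPM in m2, 208 in m6, 196 in m234, 257 in m235 and 237 in m236 among YFP+ libraries. The YFP- partners had 257, 263, 245, 317 and 266 CPM. Each YFP+ library was below its own partner, and the groups overlapped through m235, the highest of both populations. *Itga5*, at a log2 fold change of −0.30 ± 0.09 (SE), was just outside the limit (edgeR FDR = 0.0518). It passed with the animal as a block (−0.30 ± 0.04, edgeR FDR = 0.000303), in limma-trend (FDR = 0.0471), in DESeq2 (FDR = 0.0173) and with library totals (edgeR FDR = 0.0243). It also passed without YFP+ m235 (edgeR FDR = 0.0212), without YFP- m234 (0.0438) and without both libraries of m235 (0.0293).

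*Itgav* (ENSMUSG00000027087, chr2:83724397-83806916, plus strand) encodes the α subunit of several vitronectin receptors that also bind latent transforming growth factor β. It had 87.7 to 106 CPM over YFP+ and 83.5 to 113 CPM over YFP- libraries and was higher in YFP+ cells in 3 animals and lower in 2. The log2 fold change was 0.02 ± 0.08 (SE, edgeR FDR = 0.869), and its sign changed with library totals (−0.02), without YFP+ m2 (−0.000217), without YFP- m235 (−0.02) and without both libraries of m236 (−0.02). The highest value was 0.09, without YFP- m2. *Itgav* shares 5.40% of its stretches of 50 bases with *Gm13684*.

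*Itgb5* (ENSMUSG00000022817, chr16:33829665-33949338, plus strand) encodes a β partner of αv. It had 430 CPM in m2, 429 in m6, 495 in m234, 337 in m235 and 470 in m236 among YFP+ libraries. Its levels in the YFP- partners were 498, 420, 675, 323 and 425 CPM. The value of 675 CPM belonged to the shallow library of m234 and was the highest of all 10. The log2 fold change was −0.11 ± 0.17 (SE, edgeR FDR = 0.693), and its sign changed without that library (0.06) and without both libraries of m234 (0.000328). It was −0.04 without YFP+ m235, −0.22 without YFP- m235 and −0.18 without both libraries of m236.

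Microglia markers were also highest in that library. Summed over 9 genes they came to 3214 CPM in YFP- m234, against 878 to 1553 CPM in the other YFP- and 791 to 1221 CPM in the YFP+ libraries. Of the 9, all tested and none at 0 in all libraries, only *P2ry13* was lower and none was higher in YFP+ cells (edgeR FDR below 0.05; none was higher at an unadjusted p below 0.05 or in limma-trend or DESeq2), while 7 were lower with the animal as a block. Over all tested genes 6.15% were lower, or 18.33% with the block. The *P2ry13* call (30.7 ± 6.62 and 51.4 ± 17.8 CPM, −0.72 ± 0.20, SE, edgeR FDR = 0.0344) was lost in 5 of 10 fits that left out 1 library, YFP+ m2, m6, m234 and m235 and YFP- m236 (edgeR FDR up to 0.0781). It was also lost without the pair of m2 (0.108), m235 (0.0666) or m6 (0.0803), and without that of m234 the value was −0.44. The median log2 fold change of the list was −0.94. The part of microglia in the *Itgb5* values was not tested.

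**Figure D3:**
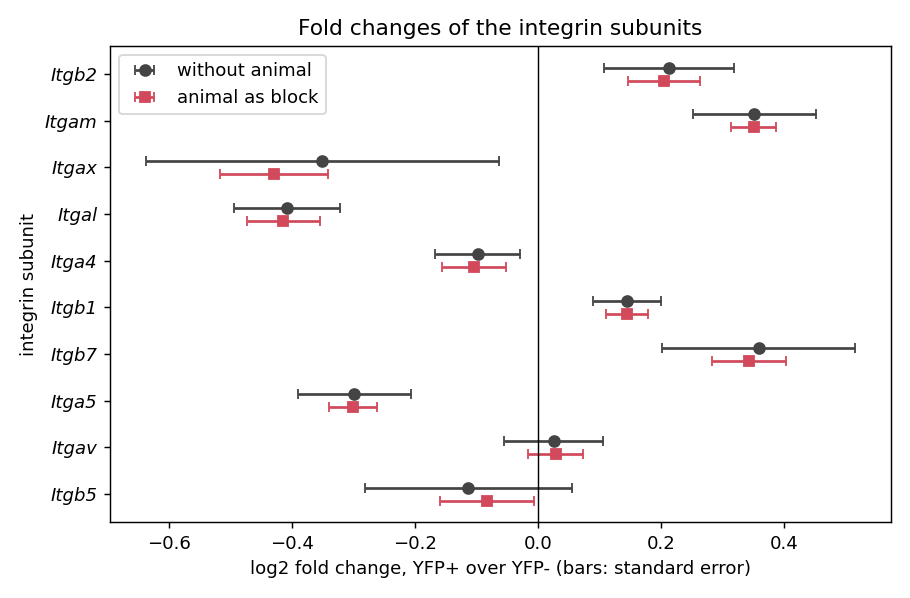
Log2 fold change of YFP+ over YFP− cells (x axis) for the 10 subunits, from edgeR without the animal (grey circles) and with the animal as a block (red squares), with bars of 1 standard error. *Itgam* at 0.35 and *Itgal* at −0.41 passed the test in both fits, *Itgam* not with library totals, and the small value of *Itgav* changes sign with library totals.

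Levels of different genes were compared as CPM per kilobase of exon, again as mean ± SD over 5 libraries. *Itgb2* was the highest in both populations (659 ± 96.6 and 569 ± 53.7), and its range met that of no other member. In YFP+ cells *Itgb1* (140.5 ± 5.30), *Itgb5* (127.5 ± 17.7), *Itgam* (112 ± 14.2) and *Itgb7* (109 ± 24.7) followed, each overlapping the next. *Itga5* (49.99 ± 6.09), below the range of *Itgb7*, overlapped *Itgax* (46.0 ± 21.0), and *Itgax* overlapped *Itgal* (42.1 ± 4.91). *Itga4* (26.5 ± 2.64) lay below *Itgal*, and *Itgav* (14.1 ± 1.06) lay below *Itga4*.

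In YFP- cells the order by this measure was nearly the same. *Itgb5* (138 ± 38.8) overlapped *Itgb1* (127 ± 6.81), which was above *Itgam* (87.7 ± 9.89). From there *Itgam*, *Itgb7* (84.6 ± 14.1), *Itga5* (61.5 ± 6.36), *Itgax* (58.8 ± 16.0) and *Itgal* (55.8 ± 4.43) each overlapped the next, with *Itga4* (28.3 ± 0.858) and *Itgav* (13.8 ± 1.56) apart at the end. Divided by the 1476 exon bases outside *Gm49368*, *Itgam* would stand at 373 ± 47.2 in YFP+ and 293 ± 33.0 in YFP- cells, second to *Itgb2*. Its place in the order thus depends on how the shared reads were counted.

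*Itgam* and *Itgax* lie next to each other on chromosome 7, at chr7:128062640-128118491 and chr7:128129547-128150657 (GRCm38, plus strand), and *Itgal* lies at chr7:127296260-127335138 on the same strand. The table of RefSeq promoters held 8 of the 10 members, without *Itgal* and *Itgb2*. Because *Itgam* and *Itgax* are neighbours that pair with 1 β subunit and had fold changes of opposite sign, the 250 bases before the RefSeq start of each are shown (GRCm38.p6, chr7:128062390-128062639 and chr7:128129300-128129549, plus strand). Capitals mark GAGGAA, the core of sites bound by the myeloid factor PU.1 (on the other strand TTCCTC), and GGGCGG, the core of sites bound by Sp1 (on the other strand CCGCCC). Of 32851 promoters of this length, 23.3% held the first and 32.7% the second. The window of *Itgam* held 2 matches of the first and 1 of the second, and that of *Itgax* held 0 of each. Whether the matches go with the direction of the fold changes over the 8 members was not tested. *Itgb7*, higher in 5 of 5 animals, also held 0 of each, and *Itga5*, lower in 5 of 5, held 1 and 2. With log2 fold changes above 0, *Itgav* (0.02) held 2 and 0, and *Itgb1* (0.14) held 1 and 1. With values below 0, *Itga4* (−0.10) held 0 and 1, and *Itgb5* (−0.11) held 0 and 3.
Itgam: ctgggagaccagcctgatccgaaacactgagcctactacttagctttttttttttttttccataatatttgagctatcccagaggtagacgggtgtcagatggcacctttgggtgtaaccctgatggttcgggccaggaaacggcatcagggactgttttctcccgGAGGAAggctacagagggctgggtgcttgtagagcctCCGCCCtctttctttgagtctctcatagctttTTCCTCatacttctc
Itgax: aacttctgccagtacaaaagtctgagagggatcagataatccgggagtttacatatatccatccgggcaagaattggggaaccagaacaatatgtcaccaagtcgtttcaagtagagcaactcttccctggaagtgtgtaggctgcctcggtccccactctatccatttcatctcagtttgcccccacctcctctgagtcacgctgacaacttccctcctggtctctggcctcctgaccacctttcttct

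The profile of each member over the 10 libraries was set beside those of all tested genes, by the root mean square (RMS) difference of log2 CPM after centring each gene on its mean. *Itgal* was followed most closely by *Gna13* (RMS 0.0858), which encodes a G protein subunit and was lower in YFP+ cells (−0.42 ± 0.06, SE, edgeR FDR = 0.00129), then by *C130026I21Rik* (0.0874) and *Sh3bp2* (0.0892). Nearest to *Itgam* were *Lpp* (RMS 0.0641), *Gipc1* (0.0712) and *Ttc37* (0.0804). Those nearest to *Itgax* were *Hic1* (RMS 0.160), *Alpk2* (0.180) and *Gm17055* (0.194). For *Itgb2* they were *Ets2* (RMS 0.0567), *Hmgn2* (0.0651) and *Klhl20* (0.0673).

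This difference is smaller between genes that vary little, so it does not rank the members. Among the partners of α4, the profiles nearest to *Itgb1* included *Taf3* (RMS 0.0270) and *Exoc2* (0.0311). *Itga4* itself had *3830406C13Rik* (RMS 0.0355), *Sp2* (0.0451) and *Ncf1* (0.0536), and *Itgb7* had *Fmnl2* (RMS 0.118), *Htatip2* (0.134) and *Gde1* (0.137). Of the matrix receptors, *Itga5* had *Gm8641* (RMS 0.0734), *Gm10053* (0.0763) and *Rnf34* (0.0797), and *Itgav* had *Mtr* (RMS 0.0546), *Prdm10* (0.0619) and *Pign* (0.0651). Nearest to *Itgb5* was *Gm38317* (RMS 0.0648), followed by *Zkscan17* (0.0827) and *Tgfbr2* (0.0865). *Gm38317* shares 7.26% of the stretches of 50 bases of *Itgb5*, so that reads of this pair may not be told apart.

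Of 17 other integrin subunits 7 were tested and none passed, with a median log2 fold change of −0.37 (edgeR; none passed at an unadjusted p below 0.05, in limma-trend or in DESeq2). *Itga6*, a laminin receptor subunit, was the most abundant at 65.8 ± 11.6 and 65.7 ± 26.4 CPM (edgeR FDR = 0.974), and the sign of its log2 fold change of 0.02 ± 0.24 (SE) changed with library totals (−0.03) and without YFP+ m2 or m236 or YFP- m6, m235 or m236 (down to −0.13). *Itgb3*, the β subunit of the platelet integrin, had the largest fold change (−1.21 ± 0.58, SE, edgeR FDR = 0.188) at 1.22 ± 0.585 and 3.11 ± 2.89 CPM, but −0.65 without YFP- m234. With the animal as a block *Itga9* was higher (edgeR FDR = 0.0252), and *Itgb3* (0.0323) and *Itgad* (0.00416) were lower. That fit called 16.79% of all tested genes higher and 18.33% lower. In that fit the *Itga9* call was lost without m235 (edgeR FDR = 0.0862), m236 (0.09) or m6 (0.078), and the *Itgb3* call without m2 (0.0878), m235 (0.0755) or m6 (0.0517). *Itga11*, *Itgb2l* and *Itgb6* had no count in any library, which allows up to 0.353 CPM in YFP- m234 and up to 0.107 CPM in the others.

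Among 29 integrin ligands 14 were tested, of which 3 were higher and 1 was lower in YFP+ cells (edgeR FDR below 0.05; 5 and 6 with the animal as a block), with a median log2 fold change of −0.01. The shares over all tested genes were 6.82% higher and 6.15% lower, or 16.79% and 18.33% with the block. *Spp1*, osteopontin, a secreted ligand of αv integrins, had 1764 ± 758 and 752 ± 324 CPM and was higher in 5 of 5 animals (1.23 ± 0.32, SE, edgeR FDR = 0.0261). Its call was lost without YFP+ m2 (edgeR FDR = 0.0643), YFP- m6 (0.0606) or m236 (0.0557) and without both libraries of m235 (0.0663) or m6 (0.0983). *Mfge8*, which bridges apoptotic cells to αv integrins, had 38.8 ± 8.57 and 19.3 ± 2.90 CPM, higher in 5 of 5 animals (1.0 ± 0.15, SE, edgeR FDR = 0.00202). *Lamc1*, a laminin chain, was also higher (0.49 ± 0.09, SE, edgeR FDR = 0.0066). *F11r*, the junctional molecule JAM-A and a ligand of LFA-1, was lower (−0.60 ± 0.13, SE, edgeR FDR = 0.0103), a call lost without both libraries of m2 (0.0671) or m6 (0.0502).

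*Fn1*, fibronectin, was the most abundant ligand gene at 9214 ± 1884 and 6693 ± 1360 CPM and was above its partner library in 5 of 5 animals. Its log2 fold change of 0.46 ± 0.16 (SE) did not pass (edgeR FDR = 0.0776), but it did with the animal as a block (edgeR FDR = 0.000793), in DESeq2 (FDR = 0.0239) and without YFP- m2 (edgeR FDR = 0.0364). *Jam2*, which had the largest fold change of the list (−1.62 ± 0.60, SE, edgeR FDR = 0.0953), was near the filter at 0.791 ± 0.227 and 2.80 ± 3.08 CPM, and its value was −0.89 without YFP- m234. It passed with the animal as a block (edgeR FDR = 0.0217, but 0.0616 without m236), in DESeq2 (FDR = 0.013) and without YFP- m235 (edgeR FDR = 0.0451).

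Of 27 genes that promote or restrain integrin activation from inside the cell 24 were tested, 2 were higher and 2 were lower (edgeR FDR below 0.05; 3 and 7 with the animal as a block), with a median log2 fold change of −0.07. Over all tested genes the shares were 6.82% higher and 6.15% lower, or 16.79% and 18.33% with the block. *Rassf5*, an effector of the small G protein RAP1 that takes part in LFA-1 activation in lymphocytes, was lower in YFP+ cells (−0.36 ± 0.06, SE, edgeR FDR = 0.00258), also with each library or animal left out. *Rasgrp2*, an activator of RAP1, was higher (0.35 ± 0.09, SE, edgeR FDR = 0.0243), a call lost without YFP+ m2 (0.0649), m6 (0.0542) or m236 (0.0545), without both libraries of m2, m6, m234 or m236 (0.0512 to 0.0973) and with no filter (0.0525). *Itgb1bp1*, whose product binds the tail of β1, was higher (0.28 ± 0.08, SE, edgeR FDR = 0.0424), and *Sharpin*, whose product holds integrins inactive, was lower (−0.17 ± 0.05, SE, edgeR FDR = 0.0467). The *Itgb1bp1* call was lost without any 1 library other than YFP+ m234 and YFP- m6 (edgeR FDR up to 0.0905), without any 1 animal other than m234 (up to 0.154), with library totals (0.0658) and with no filter (0.0637). The *Sharpin* call was lost without any 1 library other than YFP- m235 (edgeR FDR up to 0.11), without any 1 animal other than m235 (up to 0.193), with upper quartile library sizes (0.0563), with no filter (0.196) and in limma-trend (FDR = 0.0512). *Rasgrp2* and *Sharpin* passed with the animal as a block (edgeR FDR = 0.01148 and 0.01575). In that fit the *Rasgrp2* call was lost without m2 (edgeR FDR = 0.0503), and the *Sharpin* call without m2 (0.07492) or m6 (0.05455).

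*Flna*, filamin A, was the most abundant of these genes at 1272 ± 122 and 1138 ± 128 CPM (edgeR FDR = 0.268) and passed with the animal as a block (edgeR FDR = 0.0293), but not once m2 (0.088) or m235 (0.099) was left out of that fit. *Tln2* had the largest fold change (−1.61 ± 0.74, SE, edgeR FDR = 0.166) at 1.92 ± 0.653 and 6.60 ± 8.92 CPM, but only −0.48 without YFP- m234. *Fermt1* had no count in any library.

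Of 30 genes that link bound integrins to signalling and the cytoskeleton 27 were tested, with 2 higher and 2 lower (edgeR FDR below 0.05; 5 and 7 with the animal as a block) and a median log2 fold change of −0.02. Over all tested genes the shares were 6.82% higher and 6.15% lower, or 16.79% and 18.33% with the block. *Actn1*, α-actinin 1, which ties integrin tails to actin, had the largest fold change (0.75 ± 0.15, SE, edgeR FDR = 0.00737) at 68.0 ± 4.69 and 39.95 ± 9.84 CPM. *Vav3*, a guanine nucleotide exchange factor, was also higher (0.48 ± 0.12, SE, edgeR FDR = 0.024), a call lost without YFP+ m2 (0.0507), YFP- m6 (0.0536) or m236 (0.0546) and without the pair of m2 (0.0849), m6 (0.0982) or m236 (0.0733). *Lyn*, a tyrosine kinase, was among the lower genes (−0.37 ± 0.05, SE, edgeR FDR = 0.00143), also with each library or animal left out. *Syk*, a further kinase, was the most abundant at 505 ± 31.2 and 500.5 ± 43.5 CPM (edgeR FDR = 0.922), and the sign of its log2 fold change of 0.01 ± 0.07 (SE) changed with library totals (−0.03) and without YFP+ m235 or YFP- m2 or m234 (down to −0.02).

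Of 24 other leukocyte adhesion molecules 19 were tested, 1 was higher and 3 were lower (edgeR FDR below 0.05; 8 and 6 with the animal as a block), and the median log2 fold change was 0.09. The shares over all tested genes were again 6.82% and 6.15%, or 16.79% and 18.33% with the block. Among the lower genes, *Jaml*, a junctional adhesion molecule of leukocytes, had 19.0 ± 6.20 and 44.9 ± 10.5 CPM (−1.24 ± 0.22, SE, edgeR FDR = 0.00393). *Selp*, P-selectin, was low at 0.608 ± 0.253 and 1.42 ± 0.544 CPM (−1.17 ± 0.34, SE, edgeR FDR = 0.0444), and its call was lost without any 1 library other than YFP+ m234 and YFP- m2 (edgeR FDR up to 0.104) and without the pair of m235, m236 or m6 (up to 0.155). The tetraspanin *Cd151*, which associates with laminin-binding integrins, was higher (0.42 ± 0.07, SE, edgeR FDR = 0.00414). *Cd44*, the hyaluronan receptor, was the most abundant at 1057 ± 145 and 1054 ± 161 CPM (edgeR FDR = 0.986), and the sign of its log2 fold change of 0.0045 ± 0.12 (SE) changed with library totals (−0.04) and without YFP+ m235 or m236 or YFP- m6 or m234 (down to −0.07).

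Markers of lymphocytes were low. T cell markers, of which only *Lck* (0.651 ± 0.148 and 0.975 ± 0.602 CPM) was tested and did not pass (edgeR FDR = 0.546; nor at an unadjusted p below 0.05, nor in limma-trend or DESeq2), summed to 2.68 ± 0.756 and 3.10 ± 1.22 CPM. NK cell markers, of which none was tested, summed to 0.703 ± 0.152 and 1.34 ± 0.536 CPM, with *Klrb1c* the most abundant (0.426 ± 0.203 and 0.952 ± 0.399 CPM). B cell markers summed to 9.64 ± 2.97 and 29.3 ± 12.2 CPM. Most of this was *Ighm* (6.97 ± 2.32 and 26.5 ± 10.9 CPM, edgeR FDR = 0.003), the only one of 2 tested B cell genes to pass, whereas *Ms4a1* had at most 2 counts in any library.

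Markers of platelets, neutrophils and endothelial cells were also summed, although the gate removed cells with Ly6G, a protein of neutrophils, and cells without CD45, which endothelial cells lack. Platelet markers summed to 26.8 ± 6.57 and 11.1 ± 3.60 CPM. They were led by *Pf4* (17.3 ± 6.18 and 4.47 ± 2.31 CPM, edgeR FDR = 0.00324), the only one of 3 tested to pass (2 with the animal as a block). *Gp1bb* was at 0 in all libraries, and *Ppbp*, *Gp9* and *Gp1ba* had at most 5, 2 and 2 counts in any library. The sum thus rests almost wholly on the 3 tested genes, *Pf4*, *Clec1b* and *Treml1*. Whether it reflects platelets was not tested. Neutrophil markers summed to 231 ± 72.9 and 138 ± 53.0 CPM, most of it *Mmp8* (206 ± 67.7 and 115 ± 48.0 CPM, edgeR FDR = 0.0878). *Mmp8* passed with the animal as a block (edgeR FDR = 4.23e-05), without YFP+ m234 (0.0459) and without both libraries of m234 (0.0398). Of 3 tested neutrophil genes *S100a9* was lower (0.242 ± 0.101 and 2.44 ± 2.53 CPM, edgeR FDR = 0.00977). *S100a8* had 24.0 ± 6.60 and 20.05 ± 6.87 CPM and did not pass (edgeR FDR = 0.560). *Ly6g*, *Retnlg*, *Camp* and *Ngp* had at most 4, 2, 10 and 11 counts in any library. *Cxcr2*, not tested, stood at 0.141 ± 0.0607 and 0.828 ± 0.286 CPM. Endothelial markers summed to 5.96 ± 1.26 and 9.99 ± 2.32 CPM, led by *Kdr* (4.42 ± 1.10 and 7.90 ± 1.66 CPM), which was lower (edgeR FDR = 0.0204) and was the only one of 2 tested to pass, not so without both libraries of m2 (0.0872) or m236 (0.087). The part of all these cells in the integrin values was not tested.

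Markers of macrophages associated with the central nervous system summed to 1248 ± 289 and 759 ± 219 CPM, most of it *F13a1* (1021 ± 239 and 595 ± 193 CPM), which monocytes also make. *F13a1* did not pass (edgeR FDR = 0.0511), but did with the animal as a block (1.62e-05), in DESeq2 (FDR = 0.00671), with upper quartile library sizes (0.0499), with no filter (0.0262), without YFP+ m234 (0.0268), YFP- m234 (0.0485) or m236 (0.0457) and without both libraries of m234 (0.00855). Of 3 tested genes *Mrc1* was higher (61.0 ± 27.0 and 26.8 ± 12.1 CPM, edgeR FDR = 0.032; 3 were with the animal as a block), a call lost without any 1 library other than YFP+ m234 and m235 and YFP- m2 (edgeR FDR up to 0.0748) and without the pair of m235, m236 or m6 (up to 0.113). *Lyve1* and *Cd163* had at most 7 and 4 counts in any library.

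The 9 genes of monocytes and monocyte-derived macrophages summed to 16840 ± 3259 and 12570 ± 2719 CPM, led by *Lyz2* (11380 ± 1825 and 7262 ± 985 CPM, edgeR FDR = 0.00764). Of 8 tested, *Lyz2* and *Mertk* (edgeR FDR = 0.0327) were higher and *Ccr2* (0.00339) and *Plac8* (0.000745) were lower, or 4 and 4 genes with the animal as a block. *Plac8* had 93.5 ± 37.7 and 428 ± 130 CPM, and *Ccr2*, a chemokine receptor of recruited monocytes, had 178 ± 51.6 and 388 ± 74.1 CPM. The *Lyz2* call was lost without both libraries of m2 (edgeR FDR = 0.0516) or m6 (0.0534), and the *Mertk* call in 6 of 10 fits that left out 1 library, YFP+ m6, m235 and m236 and YFP- m2, m6 and m235 (edgeR FDR up to 0.0739), and in 4 of 5 that left out 1 animal, all but m234 (up to 0.137). Whether the integrin values follow a shift between such cells was not tested.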

How the data were processed

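The counts per gene were made by the authors, as deposited: 50-base single-end reads of directional libraries were aligned to GRCm38 with STAR 2.7.10b (version per the submitters' processing notes), counted on transcripts of the basic Ensembl release 100 annotation with summarizeOverlaps in Union mode, and summed to genes. Whether counting was stranded was not stated in what was read here. Of 111 genes without a base specific to 1 transcript, 57 had counts, and 49.2% of counts were even in 213 genes whose 2 transcripts share over 98% of exon bases, so reads shared within a gene were neither left out nor counted more than once.

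The test was run on genes above 1 CPM in 3 or more libraries, with edgeR 4.0.16 (R 4.3.3, quasi-likelihood test, TMM, Benjamini-Hochberg over all tested genes). SE is the log2 fold change over the root of the F statistic. CPM uses TMM library sizes, except in the filter, which uses library totals. Ratios had 0.5 added to each count. Alternatives were limma-trend (limma 3.58.1, prior count 2), DESeq2 1.42.0, other library sizes and filters, a block for the animal, and fits without each library or animal. Ratios were also tested within animals by flipping signs, a test added after the data were seen. The fits across genes by edgeR (also with the block), limma and DESeq2 were tried on simulated counts, where DESeq2 made more false calls than its nominal rate. It exceeded the limit set for false calls, which was then kept for edgeR and limma only. Intervals for 0 counts (3 counts) cover counting error only. Exon lengths came from GENCODE vM21 basic, whose spans of the 10 genes match the table.

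The libraries are paired, because both populations came from the same animal. Residuals from the group means of log2 CPM correlated at 0.361 to 0.664 across genes within animals and at −0.367 to 0.0675 between animals, where genes are not independent replicates.

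The 10 genes and the 16 lists were chosen with earlier results of these data known. Of 212 list entries 1 had no row. Besides all members, the text names per pathway list the most abundant gene, the gene with the largest fold change and those past both limits, per marker list the most abundant gene and those at 0, and per member the 3 nearest profiles. Some genes that this rule picks are not named. Other genes were named after their values were seen.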

Additional observations from a re-analysis of the deposited data

Results flagged for a closer look

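Of 48 sets of 5 libraries examined (members, total counts, ratios and marker sums in each group), 5 held a library far from the other 4, where chance alone is expected to give about 1 in 20. The YFP- library of m234 had 8396863 counts, far below the others, and its microglia markers summed to 3214 CPM, far above them. The YFP- library of m235 was high for *Itga5* (317 CPM) and *Itgb1* (530 CPM), and the YFP+ library of m235 was low for the summed B cell markers (4.40 CPM).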

How the results depend on the processing

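The alternatives were chosen before the data were examined here, though with earlier results of these data known, except the block with an animal left out and the sign flips for the ratios, which were chosen after seeing the data. The cause was not tested for any change below.

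With the animal as a block, 2307 genes were higher, 2519 were lower and 304 passed both limits, and 4 members were higher and 3 were lower. Leaving out both libraries of m2, m234, m235, m236 or m6 from that fit gave, in this order, 1478, 2706, 1762, 1926 and 1681 genes higher and 1612, 2823, 1816, 2119 and 1845 lower, and 299, 327 and 305 past both limits without m235, m236 and m6. Fewer passed both limits without m2 and without m234, the lowest count being 224 without m234. Members higher were 3, 4, 3, 4 and 3, and members lower were 3 in each.

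DESeq2 called 1276 genes higher and 1307 lower of 13733, with 2 members higher and 2 lower, and its calls may hold more false ones, since it exceeded its nominal rate on simulated counts. Library totals gave 701 genes higher and 1282 lower, with 0 members higher by edgeR (*Itgam* alone at an unadjusted p below 0.05; 1 by limma-trend and 2 by DESeq2 with their own library sizes) and 2 lower, and limma-trend called 2 members lower, with 914 genes higher and 841 lower. Without each library or animal, 360 to 1037 genes were higher, 284 to 911 were lower and 123 to 255 passed both limits, with 0 to 1 members higher and 0 to 2 lower.

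The sign changed with library totals for *Itgav* (−0.01736), *Itga6* (−0.02808), *Syk* (−0.02587) and *Cd44* (−0.03524). With the block and without an animal it changed for *Itgav* (m236, −0.01405), *Itgb5* (m234, 0.006708), *Itga6* (m236, −0.06773), *Syk* (m2, −0.002195, and m234, −0.01785) and *Cd44* (m234, −0.02218, and m236, −0.01014). None of these values passed the test (edgeR). Over libraries and animals left out, without the block, the log2 fold changes ran from −0.02163 to 0.08925 for *Itgav*, −0.2153 to 0.05601 for *Itgb5*, −0.1389 to 0.1886 for *Itga6*, −0.02009 to 0.06917 for *Syk* and −0.07224 to 0.08318 for *Cd44*.

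The ratio of *Itgax* to *Itgam* differed by −1.055 to −0.5859 and that of *Itgb7* to *Itgb1* by 0.1115 to 0.3244 over libraries and animals left out. Of the values of single genes under each alternative, 1348 kept their direction and side of the limit, 129 no longer passed, 102 newly passed and 35 changed sign (216, 12, 34 and 8 for the members). *Lck*, *Tlr11*, *S100a9* and *Jam2* fell under the filter in some fits and have no value there. Depth limits genes of low level in YFP- m234, where 1 CPM was 8.50 counts.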
